A study of Mus musculus with 22 samples.

Results

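The genes examined here encode 36 plasma proteins of blood coagulation and complement, chosen by gene symbol and followed through liver nuclei of mice given a nuclear receptor agonist. All 36 were found among the 24197 genes measured, 35 under the listed symbol and C1s under its synonym C1s1. Poly(A) RNA from liver nuclei of 7-week-old CD-1 (ICR) mice, an outbred stock, was sequenced in 22 libraries that form 10 groups. Males and females received TCPOBOP, which activates the nuclear receptor CAR (Nr1i3), at 3 mg/kg or vehicle and had livers taken after 3 h or 27 h, with 2 pools per group. Males in a separate set received PCN, which activates the nuclear receptor PXR (Nr1i2), at 50 mg/kg or vehicle and had livers taken after 3 h, with 3 pools per group. The vehicle of every control group was 1% DMSO in corn oil. A pool joined 4 livers at 3 h and 3 livers at 27 h, so variation between single animals was not seen. The labels call the TCPOBOP libraries stranded and the PCN libraries unstranded, and no level was set across the sets.

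Clotting factors circulate as inactive precursors that cut and activate each other until thrombin turns fibrinogen into fibrin, while antithrombin, heparin cofactor II and the protein C system restrain the cascade and plasmin dissolves the clot. Complement works in the same manner: the classical, lectin and alternative pathways converge on cleavage of C3 and then of the fifth component, after which the terminal components assemble a pore in the target membrane. Hepatocytes make most of these proteins, and several factors (prothrombin, factors VII, IX and X, proteins C and S) need vitamin K for a late modification step in the same cells.

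Each level given is the mean FPKM of a group's pools (fragments scaled to gene length and to the depth of the library) as the authors deposited it. The authors' ratio of treated over vehicle is given as a log2 value or a fold. Calls, raised or lowered, are genes with an authors' adjusted p below 0.05. No value per pool was held, so no spread between pools stands beside a level. The adjusted p-values rest on pools and not on single animals. In these bulk samples fewer cells of a type and less RNA per cell cannot be told apart.

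Depth read from the steps of the FPKM values was 25400000 to 46700000 fragments in each TCPOBOP-set pool and 19000000 to 31900000 in each PCN-set pool, and 1 read in 1 kb was worth at most 0.0526 FPKM. Treatment was visible in the targets of both receptors: in the authors' deposited table Cyp2b10 had log2 ratios of 4.96 to 7.11 and Cyp3a11 of 1.92 to 3.36 over the 5 comparisons. Vehicle-treated females at 27 h stood apart from the other vehicle groups of the TCPOBOP set. Between 3 h and 27 h, 13.9% of expressed genes (1 FPKM or more) differed by 2-fold or more in vehicle females and 2.76% in vehicle males, so results in females at 27 h are given with this in mind.

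All 36 genes were above 1 FPKM in every group, and their median level was 66.2 FPKM in male vehicle pools at 3 h, where the median of expressed genes was 4.32 FPKM. In the same pools the lowest member was Masp1 at 12.6 FPKM and the highest was Hc, the gene of the fifth complement component, at 259 FPKM. In the PCN set the vehicle median was 37.3 FPKM, with Masp1 again lowest at 6.54 FPKM and C4b highest at 163 FPKM. F9 in vehicle females at 27 h was the single case below the median of expressed genes. Hepatocyte markers were abundant in every group (summed level of 8 markers 1653 to 2644 FPKM).

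The genes lie on 15 chromosomes, with 5 neighbouring pairs less than 50 kb apart in mouse build mm9, the build named in the submitters' processing notes. Cfb and C2 are separated by 87 bp, F7 and F10 by 1.5 kb, C1ra and C1s1 by 6.90 kb, F11 and Klkb1 by 7.42 kb and C8b and C8a by 11.1 kb. Calls within these pairs did not go together in most cases. F10 was raised in males at 27 h where F7 was not called, and C8a was lowered there where C8b was not. F11 and Klkb1 were both lowered after PCN, as were C1ra and C1s1.

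Promoters of 27 members, from 250 bases before to 50 after the start, were read from RefSeq (GRCm38.p6) and searched on both strands for short motifs of liver transcription factors. AGGTCA, the letters recognised by many nuclear receptors, was present in 10 of 27 (37.0%) and in 16.04% of the 27025 promoters of all genes. TTGCNNAA, the core of C/EBP sites, was present in 8 of 27 (29.6%) against 10.8% of all promoters. GTTAAT, an arm of the HNF1 site that was added after the data were seen, was present in 8 of 27 (29.6%) against 7.20%. TATAAA was present in 3 of 27 (11.1%) against 14.2%, while the full HNF1 site and CAAAGTCCA, an HNF4-type site, were present in 0 of 27 against 0.0074% and 0.477%. Of the members with the AGGTCA letters, Serpind1, F9, F10, C6 and C8b were raised in a comparison. F5, Serpinf2 and Mbl2 were lowered, while F2 and F7 were not called. Of genes at 10 FPKM or more in every comparison, 26.8% were only raised and 23.3% only lowered. Vtn and Cpb2 were raised after PCN without these letters, and F11 and C8a were lowered without them. The rises of F9 and C6 did not hold against the other vehicle group (below). Whether calls go with the letters was not tested. A match of letters is a description and not a bound site.

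Promoters of 4 members whose calls stand out below are shown. Of these members, F11 is the factor lowered in 3 comparisons and Serpind1 the anticoagulant raised in both sexes at 27 h. Vtn is 1 of the 2 members called in opposite directions after the agonists (C2 is the other). C9 is the terminal component lowered in females at 3 h. Each promoter is 300 bases, on the strand of the gene, with motif letters in capitals. In F11 (chr8:45261982-45262281, minus strand) and C9 (chr15:6445096-6445395, plus strand) the capitals mark TTGCNNAA, in Serpind1 (chr16:17331121-17331420, plus strand) AGGTCA on the opposite strand, and in Vtn (chr11:78498870-78499169, plus strand) 2 overlapping TATAAA matches, 1 on each strand, followed by GTTAAT on the opposite strand. In F11 the TTGCNNAA match is on the opposite strand.
F11: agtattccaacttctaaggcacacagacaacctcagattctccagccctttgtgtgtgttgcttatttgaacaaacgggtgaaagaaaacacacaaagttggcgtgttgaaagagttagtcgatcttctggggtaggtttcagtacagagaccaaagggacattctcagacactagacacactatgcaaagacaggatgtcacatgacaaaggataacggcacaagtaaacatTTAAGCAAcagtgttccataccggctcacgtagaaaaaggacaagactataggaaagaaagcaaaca
Serpind1: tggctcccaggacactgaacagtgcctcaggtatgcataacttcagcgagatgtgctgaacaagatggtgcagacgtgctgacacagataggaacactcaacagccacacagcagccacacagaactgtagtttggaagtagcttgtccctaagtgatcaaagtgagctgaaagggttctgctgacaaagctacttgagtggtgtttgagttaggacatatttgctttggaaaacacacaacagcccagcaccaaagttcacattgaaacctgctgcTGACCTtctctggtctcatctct
Vtn: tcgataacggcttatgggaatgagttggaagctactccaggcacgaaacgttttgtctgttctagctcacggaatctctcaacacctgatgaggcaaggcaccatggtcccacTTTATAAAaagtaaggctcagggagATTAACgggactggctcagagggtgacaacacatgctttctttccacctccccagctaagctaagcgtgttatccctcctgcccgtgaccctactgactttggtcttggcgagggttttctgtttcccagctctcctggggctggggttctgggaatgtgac
C9: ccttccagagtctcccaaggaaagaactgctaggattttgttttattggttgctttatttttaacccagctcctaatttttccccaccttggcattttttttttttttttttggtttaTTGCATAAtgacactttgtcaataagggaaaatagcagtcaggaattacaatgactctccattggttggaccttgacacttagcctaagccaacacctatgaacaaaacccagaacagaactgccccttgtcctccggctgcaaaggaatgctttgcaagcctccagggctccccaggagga

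Of the 36 members, 24 were called in at least 1 comparison (66.7%): 15 were only lowered (41.7%), 7 were only raised (19.4%), and Vtn and C2 were raised in 1 comparison and lowered in another. Of genes at 1 FPKM or more in every comparison, 36.3% were called at least once, 15.4% only lowered and 18.4% only raised. Of genes at 10 FPKM or more in every comparison, which are nearer to the members in level, 58% were called at least once, 23.3% only lowered and 26.8% only raised. F2, F7, F12, Proc, Serpinc1, Plg, Masp1, Masp2, Cfb, Hc, C8g and Cfi were never called. The sets of calls differed by comparison. Males at 3 h after TCPOBOP had 1 lowered member (C4bp, 2.78%) and none raised, where 0.868% of all genes were called and 1.33% of expressed genes were raised and 0.505% lowered. Females at 3 h had 2 lowered (Klkb1 and C9, 5.56%) and none raised, against 2.10% of all genes called and 2.67% raised and 1.84% lowered among expressed genes.

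More members were called at 27 h. In males 10 members were lowered (27.8%) and 3 raised (8.33%), where 8.46% of all genes were called and 7.61% of expressed genes were lowered and 8.71% raised. Since members are abundant, genes at 10 FPKM or more are a closer background, and of these 13.8% were lowered and 11.7% raised. In females at 27 h 7 members were lowered (19.4%) and 3 raised (8.33%), against 6.35% of all genes called and 6.01% lowered and 6.98% raised among expressed genes, or 12.2% lowered and 9.26% raised at 10 FPKM or more. After PCN 8 were lowered (22.2%) and 4 raised (11.1%), against 9.78% of all genes called, 9.41% lowered and 12.9% raised among expressed genes, and 14.6% lowered and 28.4% raised at 10 FPKM or more. The median log2 ratio of the members was -0.21 in males and -0.23 in females at 27 h in the authors' deposited table, where that of expressed genes was -0.01 and 0.00. After PCN it was 0.04 against 0.03. Abundant genes leaned down at 27 h as well. Ratios were below 1 for 80.6% of members and 57.5% of genes at 10 FPKM or more in males. In females at 27 h the shares were nearer, at 66.7% and 60.8%, and after PCN they were 47.2% and 38.7%. The PCN ratios lay 0.17 above the quotient of the FPKM values on the log2 scale (median), so levels and ratios of that set are offset by that amount.

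**Figure D1:**
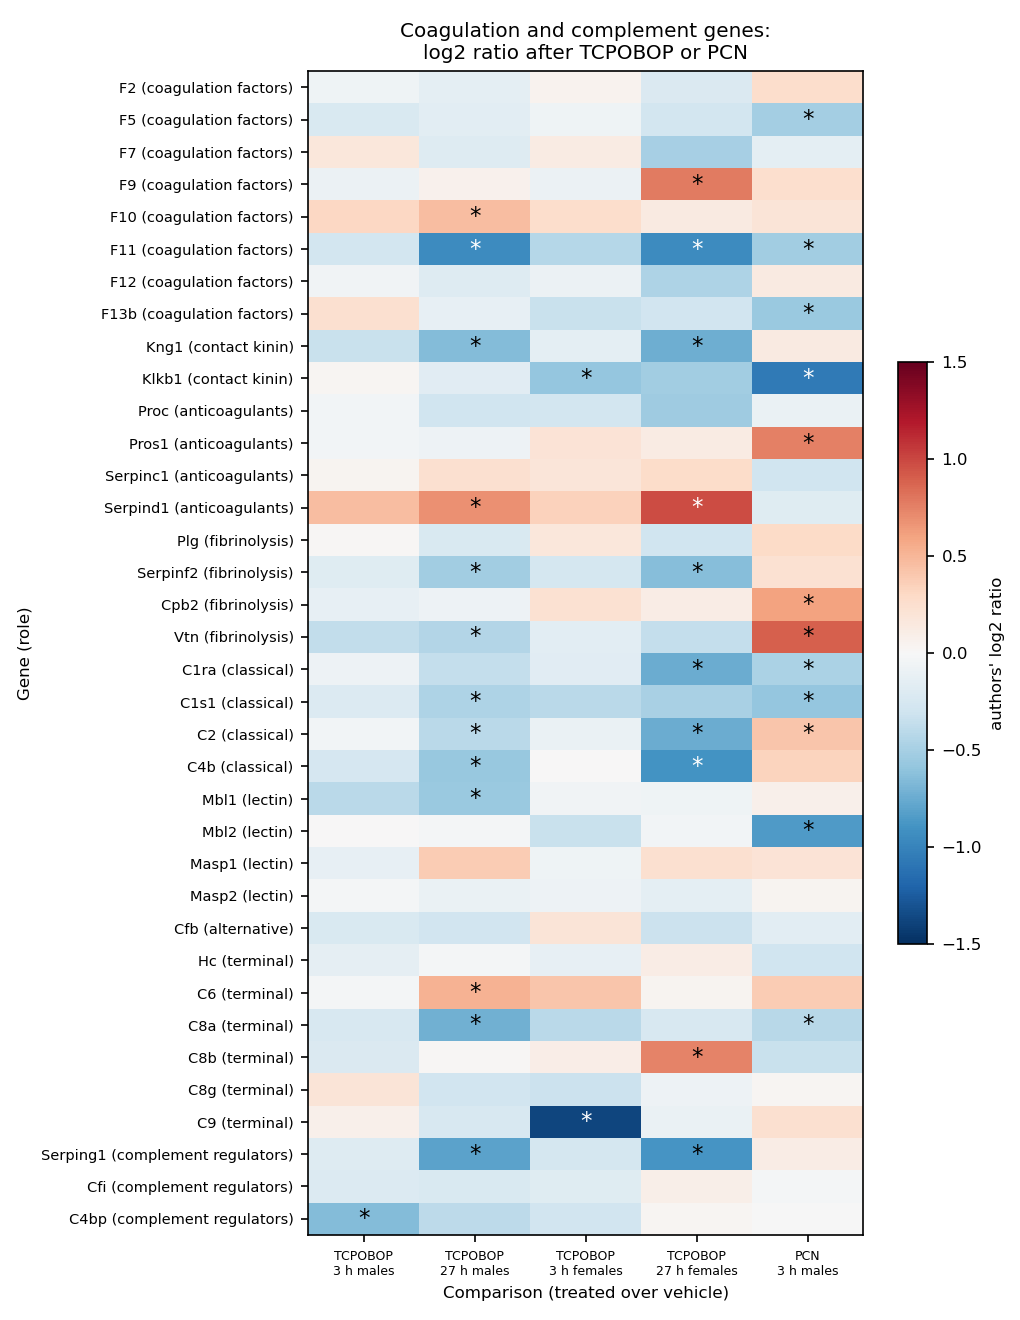
Authors' log2 ratio of treated over vehicle for each member (rows, by role) in the 5 comparisons (columns), with asterisks where the adjusted p was below 0.05. The lowered calls gather in the 2 columns at 27 h and in the PCN column, and the deepest value is C9 in females at 3 h (-1.38).

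Among the coagulation factors, F11 (factor XI, at 8:46326524-46347385 in mm9), which activates factor IX in the amplification of clotting, was the member lowered in the most comparisons. In the pairs below the vehicle level precedes the treated level. F11 stood at 78.5 and 65.7 FPKM in males at 3 h, 69.7 and 34.7 FPKM in males at 27 h, 80.6 and 57.5 FPKM in females at 3 h, 89.1 and 44.6 FPKM in females at 27 h, and 44.2 and 27.4 FPKM in the PCN set. Treated pools were lower in all 5 comparisons, and both groups treated for 27 h lay below every vehicle group of the TCPOBOP set. By the authors' deposited table F11 fell 1.93-fold in males (adjusted p 2.69e-05) and 1.92-fold in females (0.000493) at 27 h and 1.43-fold after PCN (0.0019). The pre-kallikrein gene Klkb1, next to F11, did not share the calls at 27 h.

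F9 (factor IX, which with factor VIII activates factor X) was raised in females at 27 h. Its levels were 19.3 and 18.4 FPKM in males at 3 h, 14.9 and 14.9 FPKM in males at 27 h, 19.3 and 17.4 FPKM in females at 3 h, 4.55 and 7.55 FPKM in females at 27 h and 9.69 and 10.2 FPKM in the PCN set. Both female groups at 27 h were lower than all other groups of the TCPOBOP set, and the vehicle group was the lowest. The rise was 1.72-fold in the authors' deposited table (adjusted p 0.0133), while against vehicle females at 3 h the treated group lay lower, at a centred log2 quotient of -1.44. F10 (factor X, which activates prothrombin) stood at 27.8 and 34.9, 28.5 and 37.9, 32.1 and 36.9, 39.6 and 41.7, and 17.1 and 17.4 FPKM in males at 3 h, males at 27 h, females at 3 h, females at 27 h and the PCN set. Treated means were the higher in each, and F10 rose 1.38-fold in males at 27 h in the authors' deposited table (adjusted p 0.016).

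F5 (factor V, the cofactor of factor X) and F13b (the carrier subunit of factor XIII, which crosslinks fibrin) fell after PCN, with adjusted p-values of 0.0109 and 0.000103 in the authors' deposited table. F5 went from 8.59 to 5.33 FPKM and F13b from 10.2 to 6.17 FPKM. F5 shares 359 bp with Gm16548, and without strand reads from the shared stretch cannot be told apart. Gm16548 went from 6.25 to 3.92 FPKM after PCN, with a log2 ratio of -0.51 (adjusted p 0.00867) beside -0.51 for F5 in the authors' deposited table. Neither F2 (prothrombin), F7 (the factor that starts clotting with tissue factor) nor F12 (the contact factor) was called, and their log2 ratios in the authors' deposited table lay between -0.50 and 0.26. Of the 6 vitamin K-dependent members, 1 was raised in males at 27 h (F10), 1 in females at 27 h (F9) and 1 after PCN (Pros1). Each is 16.7%, where 11.7%, 9.26% and 28.4% of genes at 10 FPKM or more were raised. None of the 6 was lowered in any comparison. Of the same abundant genes 13.8%, 12.2% and 14.6% were lowered, so an absence among 6 says little. At 27 h the authors' ratios were below 1 for 4 of the 6 in males and 3 of the 6 in females.

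The contact and kinin pair, Kng1 and Klkb1, were called in separate comparisons. Ratios of both genes were nonetheless below 1 in males at 27 h and in females at both times. In females at 27 h, where Kng1 was called, Klkb1 had a log2 ratio of -0.53 in the authors' deposited table (adjusted p 0.107, not called). Kng1 (kininogen, the source of bradykinin and a cofactor of contact activation) stood at 157 and 126 FPKM in males at 3 h, 127 and 78.2 FPKM in males at 27 h, 215 and 187 FPKM in females at 3 h, 145 and 83.9 FPKM in females at 27 h and 95.4 and 92.6 FPKM in the PCN set. Both groups treated for 27 h were below every vehicle group of the TCPOBOP set. By the authors' deposited table Kng1 fell 1.57-fold in males (adjusted p 0.000248) and 1.66-fold in females (0.020) at 27 h. Reads of Kng1 and of its close copy Kng2 may have been split between them by the counting.

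Klkb1 (plasma prekallikrein, which cuts kininogen) was at 20.3 and 20.9 FPKM in males at 3 h, 25.2 and 21.5 FPKM in males at 27 h, 17.4 and 11.2 FPKM in females at 3 h, 33.4 and 22.2 FPKM in females at 27 h and 10.5 and 4.49 FPKM in the PCN set. In proportion to vehicle, the PCN-treated level was the lowest of the 5 treated levels. Klkb1 fell 2.08-fold after PCN (adjusted p 1.3e-13) and 1.49-fold in females at 3 h after TCPOBOP (0.0267) in the authors' deposited table. Males at 3 h after TCPOBOP, the match in sex and time to the PCN set, had a log2 ratio of 0.03 in the authors' deposited table and no call, and the difference between the agonists was not tested.

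Of the anticoagulants, Serpind1 (heparin cofactor II, a thrombin inhibitor, at 16:17331464-17343665 in mm9) was the member raised in both sexes. It stood at 20.5 and 28.4 FPKM in males at 3 h, 22.3 and 34.4 FPKM in males at 27 h, 16.7 and 20.3 FPKM in females at 3 h, 16 and 30.1 FPKM in females at 27 h and 12.1 and 9.47 FPKM in the PCN set. All treated groups of the TCPOBOP set were above their own vehicle group, and the 2 at 27 h were above every vehicle group of that set. At 27 h the authors' deposited table gave rises of 1.61-fold in males (adjusted p 3.65e-05) and 1.96-fold in females (0.000185). Serpind1 lies wholly inside Pi4ka, on the opposite strand in the GENCODE annotation, and Pi4ka stood at 1.38 to 2.40 FPKM in vehicle groups and was not called at 27 h.

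Pros1 (protein S, the cofactor of activated protein C) stood at 14.8 and 14.6, 15.2 and 13.8, 16.4 and 18.1, 13.8 and 14.4, and 7.50 and 11.2 FPKM in the same order of groups. The mean levels of the TCPOBOP set lay close to each other, while in the PCN set the treated mean was higher, and Pros1 rose 1.68-fold there in the authors' deposited table (adjusted p 1.17e-07). Proc (protein C, which inactivates factors V and VIII) and Serpinc1 (antithrombin) were never called. Their log2 ratios in the authors' deposited table ran from -0.53 to -0.04 for Proc and from -0.30 to 0.27 for Serpinc1.

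In fibrinolysis, Serpinf2 (alpha-2-antiplasmin, the plasmin inhibitor) was lowered in both sexes at 27 h. Levels were 116 and 104 FPKM in males at 3 h, 108 and 72.4 FPKM in males at 27 h, 143 and 114 FPKM in females at 3 h, 147 and 90.9 FPKM in females at 27 h and 75.1 and 78.3 FPKM in the PCN set. In the TCPOBOP set every treated group was lower than its own vehicle group. Serpinf2 fell 1.43-fold in males (adjusted p 0.00363) and 1.55-fold in females (0.0381) at 27 h in the authors' deposited table. Plg (plasminogen, the precursor of plasmin) had levels of 95.7 to 194 FPKM and no call.

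Vtn (vitronectin, an adhesive plasma protein that also blocks the terminal complement pore, at 11:78312622-78315827 in mm9) was called in opposite directions. It stood at 245 and 192 FPKM in males at 3 h, 183 and 130 FPKM in males at 27 h, 259 and 223 FPKM in females at 3 h, 144 and 108 FPKM in females at 27 h and 162 and 268 FPKM in the PCN set. TCPOBOP-treated groups were all below their vehicle, while the PCN-treated group was above its own. In the authors' deposited table Vtn fell 1.36-fold in males at 27 h (adjusted p 0.0283) and rose 1.86-fold after PCN (1.98e-12). Those calls differ in agonist and in time, and the difference between them was not tested.

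Cpb2 (carboxypeptidase B2, an inhibitor of fibrinolysis also called TAFI) was at 53.6 and 49.9, 40.1 and 36.5, 55.8 and 62.8, 29.0 and 29.9, and 28.6 and 38.4 FPKM in males at 3 h, males at 27 h, females at 3 h, females at 27 h and the PCN set. Its 1.52-fold rise after PCN was its single call in the authors' deposited table (adjusted p 8.66e-06). With Vtn and Pros1 it made up, with C2, the 4 members raised after PCN.

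Of the 4 classical complement members, 3 were lowered at 27 h in each sex, with C1ra not called in males and C1s1 not called in females. Of genes at 10 FPKM or more, 13.8% were lowered in males and 12.2% in females. A list of 4 genes is short for a comparison with these shares, and none was tested. C4b (component C4, at 17:34865326-34880842 in mm9), cut by C1s to build the C3 convertase, stood at 229 and 194 FPKM in males at 3 h, 155 and 100.3 FPKM in males at 27 h, 294 and 282 FPKM in females at 3 h, 223 and 114 FPKM in females at 27 h and 163 and 181 FPKM in the PCN set. The 2 groups treated for 27 h were the lowest of the TCPOBOP set. C4b fell 1.48-fold in males (adjusted p 0.00107) and 1.87-fold in females (0.0044) at 27 h in the authors' deposited table. Reads of C4b and its close copy C4a may not have been kept apart by the counting.

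C2 (the serine protease of the classical C3 convertase, at 17:34999547-35019045 in mm9) stood at 29.8 and 29.2 FPKM in males at 3 h, 26.1 and 19 FPKM in males at 27 h, 24.4 and 21.8 FPKM in females at 3 h, 40.6 and 23.2 FPKM in females at 27 h and 18.5 and 22 FPKM in the PCN set. Vehicle females at 27 h were the highest group of the TCPOBOP set, and the treated level of 23.2 FPKM lay close to the other female groups. The authors' deposited table gave falls of 1.32-fold in males (adjusted p 0.038) and 1.68-fold in females (0.0065) at 27 h and a rise of 1.34-fold after PCN (0.0448). Against vehicle females at 3 h, treated females at 27 h had a centred log2 quotient of -0.17 for C2.

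C1ra and C1s1 encode the proteases C1r and C1s of the first component. C1ra was at 14.8 and 14.2, 14.9 and 11.2, 12.2 and 10.4, 18.7 and 10.7, and 10.5 and 6.73 FPKM in males at 3 h, males at 27 h, females at 3 h, females at 27 h and the PCN set. C1s1 was at 85.8 and 75, 121 and 84.7, 84.8 and 61.3, 181 and 123.5, and 52.2 and 31.1 FPKM in the same order. Treated levels of both genes were below their vehicle in all 5 comparisons. In the authors' deposited table C1ra fell 1.67-fold in females at 27 h (adjusted p 0.0114) and 1.39-fold after PCN (0.00742). C1s1 fell 1.37-fold in males at 27 h (0.0174) and 1.49-fold after PCN (8.18e-05) in the authors' deposited table. Against vehicle males at 3 h, treated males at 27 h had a centred log2 quotient of -0.04 for C1s1. Against vehicle females at 3 h, treated females at 27 h had a centred log2 quotient of -0.29 for C1ra. Reads of C1ra and C1s1 and of their copies C1rb and C1s2 may have been split between them by the counting.

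The mannose-binding lectins, which start the lectin pathway on microbial sugars, were each called once. Mbl1 fell 1.47-fold in males at 27 h (adjusted p 0.00186) in the authors' deposited table, from 48.9 to 32.0 FPKM. Mbl2 was at 43.4 and 44.2, 43.8 and 41.2, 56.6 and 42.8, 36.2 and 33.9, and 24.2 and 12 FPKM in the order of groups used above. In the PCN set the treated level was well below vehicle, and Mbl2 fell 1.80-fold after PCN in the authors' deposited table (adjusted p 1.47e-08). The lectin proteases Masp1 and Masp2 were not called. Cfb (factor B, the protease of the alternative pathway) was not called either, with log2 ratios of -0.32 to 0.19 in the authors' deposited table.

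Terminal components build the membrane attack complex, and their calls went both ways. C9, which forms the ring of the pore, stood at 97.5 and 104 FPKM in males at 3 h, 74.6 and 60.9 FPKM in males at 27 h, 42.4 and 15.6 FPKM in females at 3 h, 32.9 and 29.7 FPKM in females at 27 h and 40.0 and 42.0 FPKM in the PCN set. The group of females treated for 3 h was the lowest of the TCPOBOP set. With a fall of 2.60-fold (adjusted p 9.21e-11, authors' deposited table), C9 had the largest change of any member in any comparison, and it lies at 15:6395333-6448476 in mm9. The authors' deposited table gave males at 3 h a log2 ratio of 0.07 for C9, and whether the sexes differed was not tested.

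C8a, the alpha chain of the eighth component, was at 144 and 123.4, 122 and 70.9, 123.3 and 89.4, 77.4 and 62.9, and 82.6 and 54.9 FPKM in males at 3 h, males at 27 h, females at 3 h, females at 27 h and the PCN set. Each treated level was lower than its vehicle, and C8a fell 1.65-fold in males at 27 h (adjusted p 2.74e-05) and 1.33-fold after PCN (0.00342) in the authors' deposited table. C8b, the beta chain, was at 24.2 and 21, 15.6 and 15.1, 7.60 and 7.78, 5.38 and 8.71, and 12.4 and 8.74 FPKM in the same order. All 4 female groups were below all 4 male groups of the TCPOBOP set. C8b rose 1.68-fold in females at 27 h (adjusted p 0.0112, authors' deposited table), and the treated group was at a centred log2 quotient of 0.10 against vehicle females at 3 h.

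C6, which joins the complex after the fifth component, was at 36.5 and 36.1, 16.9 and 23.4, 5.09 and 6.51, 4.89 and 4.81, and 20.7 and 23.8 FPKM in that order. The 4 female groups lay between 4.81 and 6.51 FPKM and the 4 male groups of the TCPOBOP set between 16.9 and 36.5 FPKM. C6 rose 1.44-fold in males at 27 h in the authors' deposited table (adjusted p 0.0222), but against vehicle males at 3 h the treated group lay lower, at a centred log2 quotient of -0.67. Hc and C8g (the gamma chain of the eighth component) were not called.

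Of the complement regulators, Serping1 (the C1 inhibitor, which also restrains kallikrein and factors XI and XII, at 2:84605517-84615586 in mm9) was lowered in both sexes at 27 h. It stood at 117 and 103 FPKM in males at 3 h, 123.2 and 68.0 FPKM in males at 27 h, 141 and 113 FPKM in females at 3 h, 156 and 80.6 FPKM in females at 27 h and 75.7 and 72.4 FPKM in the PCN set. Both groups treated for 27 h were the lowest of the TCPOBOP set. It fell 1.74-fold in males (adjusted p 3.17e-07, the smallest of any member there) and 1.85-fold in females (0.00129) in the authors' deposited table.

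C4bp (the C4b-binding protein, a brake on the classical pathway) was at 176 and 114, 97.4 and 71.4, 132 and 104, 59.8 and 58.8, and 94.1 and 83.2 FPKM in males at 3 h, males at 27 h, females at 3 h, females at 27 h and the PCN set. Vehicle males at 3 h were the highest group of the TCPOBOP set, and treated males at 3 h were still above vehicle males at 27 h. Its 1.57-fold fall in males at 3 h (adjusted p 0.0134, authors' deposited table) was the single member call of that comparison. Against vehicle males at 27 h the centred log2 quotient of the treated group was 0.29. Cfi (factor I, which cleaves C3b and C4b) was not called.

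**Figure D2:**
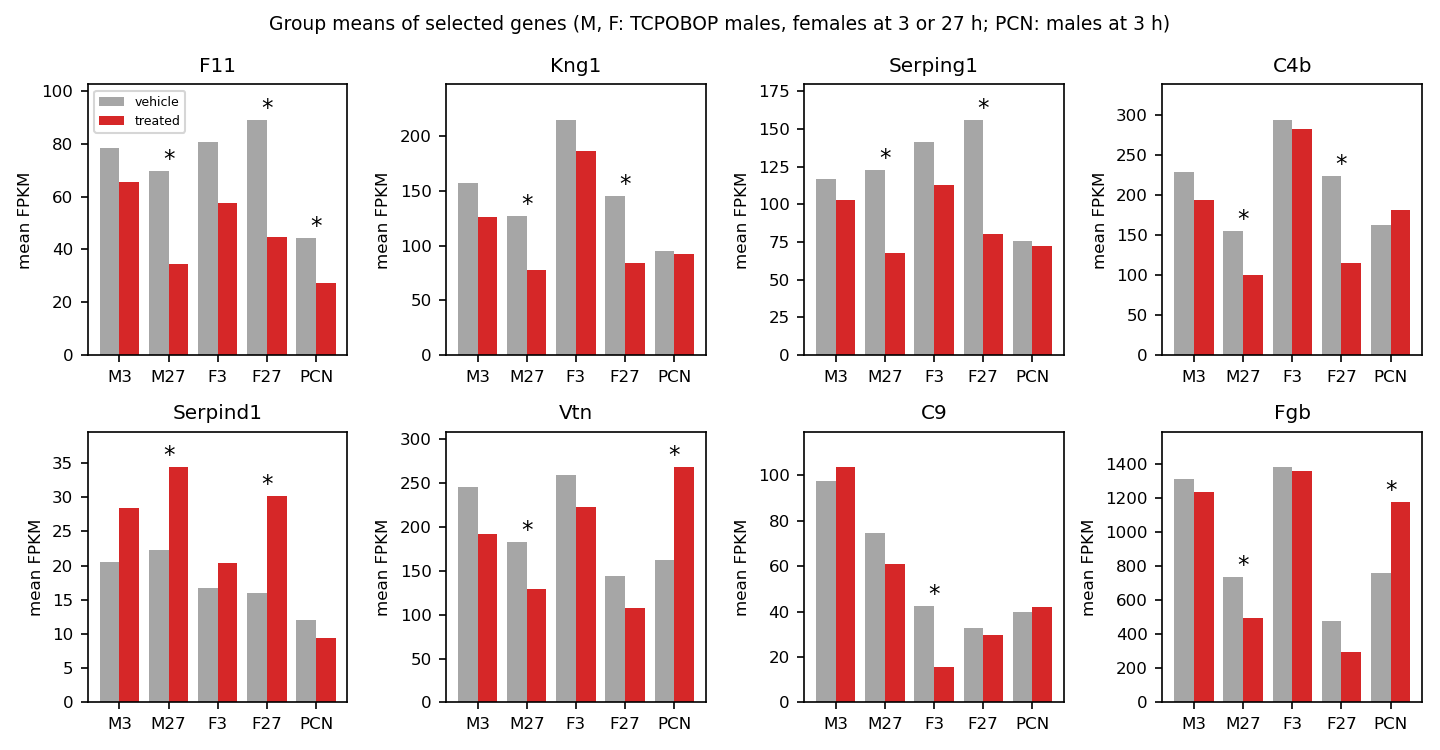
Bars give the mean FPKM of vehicle (grey) and treated (red) groups for 7 members and Fgb in the 5 comparisons (M3, M27, F3 and F27 are TCPOBOP males and females at 3 h or 27 h, and PCN is males at 3 h), with axes from 0 and asterisks where the adjusted p was below 0.05. F11, Kng1, Serping1 and C4b are low in both groups treated for 27 h, Serpind1 is high there, Vtn is higher than vehicle in the PCN set alone, and C9 in the TCPOBOP set is lowest at 15.6 FPKM in females treated for 3 h.

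Some member calls at 27 h were shared by the sexes. F11, Kng1, Serpinf2, C2, C4b and Serping1 were lowered in both, which is 60.0% of the 10 lowered in males and 85.7% of the 7 lowered in females. Among expressed genes 43.8% and 58.6% were shared in the same way. Serpind1 was the member raised in both (33.3% of each sex's 3, against 54.6% and 61.4%). The log2 ratios of 31 of 36 members had the same sign in both sexes (86.1%), as did those of 77.1% of expressed genes. Sharing was not counted among genes at 10 FPKM or more, the background closer to the members in level. At 3 h none of the 1 male and 2 female calls was shared, where among lowered expressed genes 14.3% of male and 3.87% of female calls were, and 24 of 36 members had the same sign (66.7% against 56.4%). Members called in 1 sex are not shown to differ between the sexes, since that difference was not tested.

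**Figure D3:**
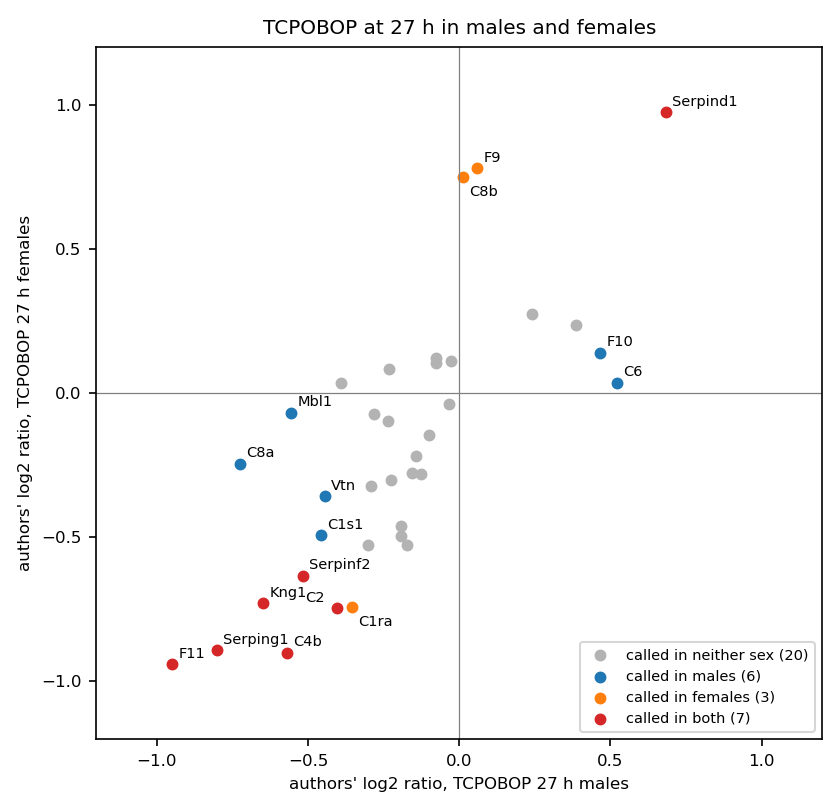
Authors' log2 ratio of each member at 27 h of TCPOBOP in males (x axis) and females (y axis), with members called in either sex named. F11, Serping1, C4b and Kng1 lie low on both axes, Serpind1 high on both, and F9 and C8b high in females and near 0 in males.

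Vehicle groups differed by sex and time in a few members, and no test was run because values per pool were not held. At 3 h C6, C8b and C9 were lower in vehicle females by 6.89, 3.09 and 2.24-fold, relative to the median gene, and 3.31% of expressed genes were at least 2-fold apart. At 27 h C6, F9, C8b and C9 were lower in vehicle females by 3.56, 3.35, 2.98 and 2.36-fold and F7 was higher by 2.43-fold, against 8.01% of expressed genes. C6, C8b and C9 thus had lower female levels at both times, whereas F9 was level between the sexes at 3 h (19.3 FPKM in each).

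Between the vehicle groups at 3 h and 27 h, C6 was 2.29-fold lower at 27 h in males. In females F9 was lower at 27 h by 4.74-fold, C4bp by 2.51-fold, Cpb2 by 2.19-fold, Mbl1 by 2.11-fold and Vtn by 2.04-fold, which are 5 of 36 members (13.9%, the same share as among expressed genes). Of the member calls after TCPOBOP, 12 of 13 in males at 27 h, 9 of 10 in females at 27 h and 2 of 2 in females at 3 h kept their direction when the treated group was set against the other vehicle group of the same sex. The size was not kept in each: C1s1 in males at 27 h came to a centred log2 quotient of -0.04, C2 in females at 27 h to -0.17 and C8b in females at 27 h to 0.10. C4bp in males at 3 h, C6 in males at 27 h and F9 in females at 27 h did not keep their direction. Relative to the median gene, 28 of 36 members in males and 26 of 36 in females were lower in vehicle at 27 h than at 3 h. The median centred log2 quotients were -0.20 and -0.25. Against vehicle at 3 h a lowered call at 27 h thus keeps its direction more easily than a raised one. The tally therefore cannot show that the lowered calls hold.

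**Figure D4:**
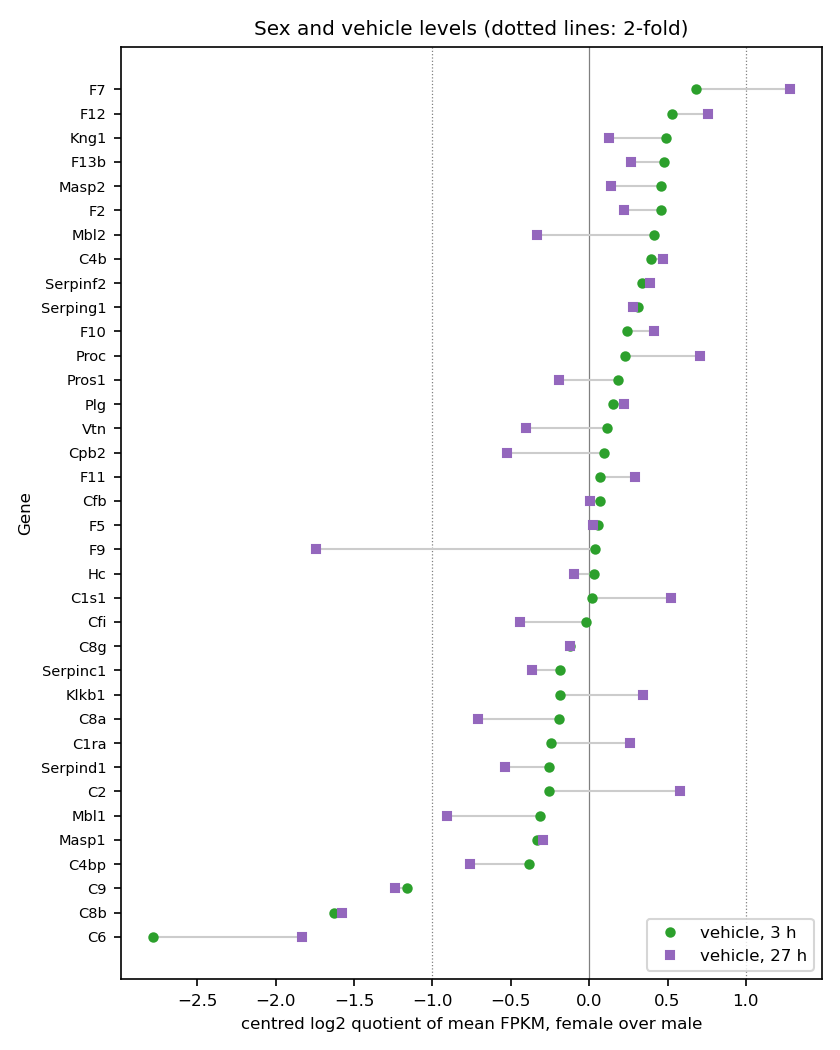
Centred log2 quotient of female over male vehicle FPKM for each member at 3 h and 27 h, with lines at 2-fold. C6, C8b and C9 lie below the lower line at both times, F9 at 27 h alone, and F7 above the upper line at 27 h.

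In the rest of the pathway, 57 genes listed with the members had 0 raised and 2 lowered in males at 3 h, 3 and 6 in males at 27 h, 0 and 1 in females at 3 h, 3 and 4 in females at 27 h, and 9 and 1 after PCN. In the order of these comparisons 3.51%, 15.8%, 1.75%, 12.3% and 17.5% of the list were called, beside the shares of all genes given above. By direction, in females at 27 h 5.26% of the list were raised and 7.02% lowered, and in males at 27 h 5.26% and 10.5%. Of expressed genes 6.98% were raised and 6.01% lowered in females, and 8.71% and 7.61% in males. The list shares count all 57 genes, of which 41 were expressed in each sex at 27 h. They are therefore not on the same footing as the shares of expressed genes. The 3 fibrinogen chains, cut by thrombin to fibrin, were called in both directions. Fga stood at 772 and 783 FPKM in males at 3 h, 424 and 278 FPKM in males at 27 h, 939 and 930 FPKM in females at 3 h, 318 and 194 FPKM in females at 27 h and 459 and 741 FPKM in the PCN set. Fgb and Fgg were likewise below vehicle in both treated groups at 27 h and above it after PCN, at 737 and 497 FPKM and 725 and 426 FPKM in males at 27 h and at 762 and 1176 FPKM and 770.4 and 1180.2 FPKM in the PCN set.

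The 3 chains fell in males at 27 h, with adjusted p-values of 0.00206 (Fga), 0.0069 (Fgb) and 9.6e-06 (Fgg) in the authors' deposited table. In females at 27 h Fga and Fgg fell (0.0448 and 0.0262) and Fgb did not pass (0.0727) in the authors' deposited table. After PCN all 3 rose, by 1.82, 1.74 and 1.73-fold in the authors' deposited table. C3, on which the complement pathways converge, stood at 237 and 332 FPKM in the PCN set and rose 1.58-fold (adjusted p 4.34e-07, authors' deposited table), and its log2 ratios after TCPOBOP lay between -0.06 and 0.31 with no call.

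Other genes of the pathway list were called as follows. Hgfac, a serine protease that activates hepatocyte growth factor, fell 2.14-fold in males and 2.33-fold in females at 27 h and 1.77-fold after PCN in the authors' deposited table. Gas6, a vitamin K-dependent ligand of TAM receptors, fell 1.71-fold in males at 3 h, 2.32-fold in males at 27 h and 2.77-fold in females at 27 h in the authors' deposited table. Lman1, the receptor that carries factors V and VIII out of the endoplasmic reticulum, rose 1.55 and 1.63-fold in males and females at 27 h, and Cd55, a membrane regulator of complement, rose 1.62 and 2.64-fold, in the authors' deposited table. F8, the cofactor of factor IX, rose 1.65-fold in males at 27 h, and Vkorc1l1, a relative of the vitamin K epoxide reductase, 1.59-fold in females at 27 h, in the authors' deposited table.

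After PCN Thbd (thrombomodulin) rose 3.33-fold and Serpina10 (the protein Z-dependent protease inhibitor) 1.96-fold in the authors' deposited table. Thbd was low, at 0.678 FPKM in vehicle. At 3 h A2m fell in males in the authors' deposited table (adjusted p 0.0108), and it was below 1 FPKM in both male groups of that comparison.

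Markers of other liver cells moved in some of these comparisons. Of 8 endothelial markers, Kdr, Pecam1, Oit3 and Dnase1l3 were raised in males at 27 h, where 8.71% of expressed genes were raised. The 8 markers there summed to 114 FPKM in vehicle (Clec4g alone 51.0 FPKM) and 125 FPKM after TCPOBOP. In females at 27 h 0 were called (74.2 and 76.9 FPKM summed). Ratios were above 1 for 6 of 8 in males and 7 of 8 in females at 27 h. Their median log2 ratios were 0.43 and 0.37 in the authors' deposited table. Lyve1 of the same list was raised in females at 3 h (91.9 and 86.9 FPKM summed), the comparison that holds the C9 and Klkb1 calls. There the ratios of 5 of the 8 endothelial markers were below 1, with a median log2 ratio of -0.08 in the authors' deposited table. Of 8 Kupffer cell markers, Emr1 was raised in males at 27 h (62.6 and 66.5 FPKM summed) and in females at 3 h (55.6 and 72.1 FPKM), and none was called in females at 27 h (98.3 and 72.2 FPKM). Ratios of Kupffer markers were above 1 for 6, 8 and 4 of 8 in these comparisons, in that order. Their median log2 ratios were 0.28, 0.49 and -0.11 in the authors' deposited table. Of 8 stellate cell markers none was called after TCPOBOP. Of 8 hepatocyte markers, Ass1 was lowered in females at 27 h (2033 and 1657 FPKM) and none was called in males at 27 h (2134 and 2055 FPKM). Ratios of these markers were below 1 for 6 of 8 in females and 4 of 8 in males at 27 h. Their median log2 ratios were -0.12 and -0.01 in the authors' deposited table. After PCN Apoa1, Cps1, Tat and Hnf4a of the hepatocyte list were raised, with Clec4g and Oit3 of the endothelial and Ecm1 of the stellate list, and Cd5l of the Kupffer list was lowered. After PCN 12.9% of expressed genes were raised and 9.41% lowered, and 28.4% and 14.6% of genes at 10 FPKM or more. No listed marker was at 0 in any group, and the part of these shifts in the members' calls was not tested.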

How the data were processed

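RNA was sequenced in 22 libraries of 10 groups. The submitters' processing notes name build mm9, TopHat2, featureCounts 1.4.6-p5, HTSeq 0.6.1p1 and edgeR. The table's legend gives gene-body counting throughout, with HTSeq named for the PCN comparison and edgeR for those with TCPOBOP, and the test behind the PCN p-values is not given in the sources used here. The authors deposited, for 24197 genes, an adjusted p-value, a fold change with sign, a ratio and the group means in FPKM for each of 5 comparisons. The gene length behind FPKM is not given in the sources used here. A directional kit is named in the labels for all libraries, although those of PCN are called unstranded.

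From these, members were called at the authors' adjusted p below 0.05 and vehicle levels were compared by log2 quotient after adding 0.1 to mean FPKM, less the median of genes at 1 FPKM or more. Setting treated groups against the vehicle of the other time used the same quotient and centring. Depth was read from steps of low FPKM values in genes under 1500 bp, of which 89.7% to 94.8% per group lay within 0.1% of whole reads. The reading of depth and the centring of quotients were tested on simulated data, and the counting of calls was not. Python 3.11.15, pandas 2.3.3, numpy 2.4.6 and matplotlib 3.10.9 were used. Values in all groups are given for members called in 2 or more comparisons and for the 3 largest called rises and falls of each comparison. Of the other pathway genes, Fga, Fgb, Fgg and C3 and up to 3 called rises and falls per comparison are named. A few genes that this rule would name are not reported here. The members, lists and rules were chosen with earlier results of these data known. Alternatives were other p, fold and FPKM thresholds, other pseudocounts, other centring and the other vehicle group. Values per pool were not held, so leaving out pools, SDs and tests of sex, time or agonist were not run.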

Additional observations from a re-analysis of the deposited data

How the results depend on the processing

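The number of members called was within 1.5 times the reported count under an adjusted p below 0.1. Directions from FPKM quotients gave the same raised and lowered counts in every comparison. A limit of 1 FPKM could not change a count, since every member is at 4.49 FPKM or more. At an adjusted p below 0.01 it was 0 in males and 1 in females at 3 h, 8 in males and 5 in females at 27 h, and still within that range after PCN. Requiring a 1.5-fold change left 5 in males at 27 h, 1 in females at 3 h and 5 after PCN. With the direction kept against the other time's vehicle group, the count in males at 3 h was 0, since C4bp turned to 0.29 on the log2 scale. F9 in females at 27 h turned to -1.44 and C6 in males at 27 h to -0.67. Of the 26 values set against the other vehicle group, 16 moved by more than 0.2 in log2 without turning and 7 moved less. With 1 added to FPKM, Pros1 after PCN moved to 0.52 and 37 values moved less. Vehicle females at 27 h over 3 h gave 3 members at least 2-fold apart without centring, where 5 are reported. No paired analysis was possible because the table holds no value per pool, and leaving out a pool was not run for the same reason. Depth limits none of the members, all of them at 4.49 FPKM or more, but 2 or 3 pools a group limit each call.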
